A study of Mus musculus with 11 samples.

Results

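The genes described here encode proteins of the small subunit of the cytosolic ribosome. The 28 listed genes were Rps2, Rps3, Rps3a1, Rps4x, Rps6, Rps7, Rps9, Rps10, Rps12, Rps13, Rps14, Rps15, Rps15a, Rps16, Rps18, Rps19, Rps20, Rps21, Rps23, Rps24, Rps25, Rps26, Rps27, Rps27a, Rps28, Rps29, Rpsa and Fau, out of 21883 protein-coding genes of chromosomes 1 to 19, X and Y, and all 28 were found by symbol. They were chosen by name, as components of this subunit, with earlier results of these data known. A gene counted as having a peak where a called peak came within 1000 bases of either end of its span in mm10.

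The binding profiles came from CUT&RUN, in which an antibody bound on chromatin guides a nuclease that releases the DNA beneath it, on mouse embryoid bodies at day 2 of differentiation. Wild-type (WT) cells, Wdr5 knockout (KO) cells and Wdr5 and p53 double knockout (DKO) cells shared 1 background, embryonic stem cells carrying a knock-in Rx:GFP reporter, and all were differentiated by SFEBq in medium with 5% KSR, had doxycycline withdrawn on day 0 and received 2% matrigel on day 1. The sources used here do not say what the doxycycline controlled, which parts were deleted or how many clones each genotype stands for. WDR5 and P53 were profiled in WT and DKO (2 lists each), and H3K4me3 in WT, KO and DKO (1 list each).

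The ribosome's small subunit reads the messenger RNA: it binds the initiator tRNA, scans for the start codon and holds the codon and anticodon together during decoding. Its proteins are made in near-equal amounts from genes with strong, steadily active promoters, whose transcripts begin in a run of pyrimidines that links their translation to nutrient signalling. H3K4me3, trimethylated lysine 4 of histone H3, marks the nucleosomes just after active start sites. WDR5 holds together the MLL and SET1 complexes that write this mark, and it is also known to bind ribosomal protein genes in other cell types. P53 is the tumour suppressor transcription factor, which is stabilised when free ribosomal proteins accumulate and block its ubiquitin ligase MDM2.

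The lists held 99 to 9836 peaks each. The KO H3K4me3 library was the shallowest of all 11, with 22266680 fragments and 918 peaks, beside 34187012 fragments and 9836 peaks for WT, and 43186562 fragments and 6418 peaks for DKO. The WDR5 and P53 libraries held from 23908177 to 57509959 fragments. In WT, 77.3% of the WDR5 summits of list 2 repeated a list 1 summit to the base, 75.3% did in DKO and 80.3% in WT P53, so the lists of those pairs were not read as separate libraries. The DKO P53 lists shared 10.6%, but their WT partners do not give separate libraries to set against them. H3K4me3 had 1 library per genotype, so no comparison below has a replicate check on both sides, and no test between genotypes was made. H3K4me3 peaks in WT lay at 4 of 6 pluripotency markers, among them Pou5f1 and Sox2, at 4 of 7 epiblast and anterior neural markers, at 2 of 4 fibroblast feeder markers (Col5a1 and Thy1) and at 0 of 4 extraembryonic endoderm markers.

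Promoters of small subunit genes with a WDR5 peak are shown because WDR5 lay at or beside their starts. Of the 5 genes with a WDR5 peak in both WT lists, Rps3, Rps18 and Rps19 had an entry in the RefSeq promoter table (GRCm38.p6, the assembly of mm10) that is shown here. Each run is 260 bases, 5′ to 3′ on the gene's strand, with the last 10 bases beginning at the most upstream annotated start. Capitals mark a match to one of the motifs searched.
Rps3, chr7:99483700-99483959, minus strand: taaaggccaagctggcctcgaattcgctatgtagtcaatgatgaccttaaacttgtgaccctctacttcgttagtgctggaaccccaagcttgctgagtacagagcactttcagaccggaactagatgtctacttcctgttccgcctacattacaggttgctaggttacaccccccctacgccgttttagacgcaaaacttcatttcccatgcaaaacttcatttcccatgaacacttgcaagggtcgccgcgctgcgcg
Rps18, chr17:33955656-33955915, minus strand: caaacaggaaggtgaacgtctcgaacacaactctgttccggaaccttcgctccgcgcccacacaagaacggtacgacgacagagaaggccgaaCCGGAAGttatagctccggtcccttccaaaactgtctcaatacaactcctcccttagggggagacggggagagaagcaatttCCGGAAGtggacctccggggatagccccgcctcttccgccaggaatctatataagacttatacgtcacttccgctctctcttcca
Rps19, chr7:24884342-24884601, plus strand: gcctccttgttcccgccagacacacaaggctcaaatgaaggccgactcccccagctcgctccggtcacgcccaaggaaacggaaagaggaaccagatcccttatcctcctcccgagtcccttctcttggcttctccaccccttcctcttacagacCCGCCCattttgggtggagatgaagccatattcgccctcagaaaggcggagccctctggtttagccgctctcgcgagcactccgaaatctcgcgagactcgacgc

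Motifs were searched by exact letters, on both strands unless stated. The box bound by Sp1 family factors was searched as GGGCGG, and the core bound by ETS factors, common in housekeeping promoters, was searched as CCGGAAG. For the YY1 core the letters were AAGATGG, and for the E-box bound by MYC they were CACGTG. A core of the p53 half-site was searched as ACATGTC. Letters of the pyrimidine tract were searched on the gene strand alone, first as CTTTCC, anywhere in the window given below and not only at the start. A second form of the tract was CCTTTTC. A longer form, which contains the first, was CTCTTTCC. The window ran from 250 bases before to 50 bases after the most upstream start of each gene, so some matches fall outside the runs printed above. In the printed runs, Rps18 carried 2 ETS matches, from 157 to 151 and from 75 to 69 bases before the start, and Rps19 carried 1 Sp1 box, from 95 to 90 bases before it. Rps3 had no match in its printed run, with its 2 Sp1 boxes 22 and 41 bases after the start.

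Across the 24 small subunit genes in that table, the ETS core lay furthest, in percentage points, from its share among all promoters: it lay in 10 of 24 (41.7%), against 11.9% of 17491 protein-coding promoters. The 10 were Rps2, Rps3a1, Rps6, Rps7, Rps10, Rps18, Rps21, Rps25, Rps26 and Rpsa. The YY1 core lay in 6 of 24 (25%, against 6.35%), namely Rps7, Rps15a, Rps16, Rps26, Rps27 and Fau. The Sp1 box lay in 13 of 24 (54.2%, against 46.3%) and CTTTCC in 5 of 24 (20.8%, against 13.8%), while CCTTTTC lay in Rps12 and Rps15 and in 3.48% of all promoters. CTTTCC began 1 base after the start at Rps27, 4 at Rps10 and 43 at Rps19, but 98 before it at Rps9 and 237 at Rpsa. CCTTTTC began 8 bases after the start at Rps12 and 28 at Rps15. Counts of these letters are therefore not counts of tracts at the start. The E-box lay in 0 of 24 (against 7.91%), ACATGTC in 0 (against 1.47%) and CTCTTTCC in 0 (against 1.48%). Large subunit genes had ETS in 13 of 34 (38.2%), the E-box in 5 of 34 (14.7%) and CTTTCC in 15 of 34 (44.1%). They had the Sp1 box in 22 of 34 (64.7%), the YY1 core in 4 (11.8%), CCTTTTC in 4 (11.8%), CTCTTTCC in 7 (20.6%) and ACATGTC in 0. These are counts of letters in a reference sequence, with no test and no measure of factor binding.

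WDR5 in WT was called at Rps3, Rps14, Rps18, Rps19 and Rps29, each in both lists. These were 5 of 28 small subunit genes (17.9%, 95% Wilson interval 7.88 to 35.6, counting error only), against 1.10% of all protein-coding genes called in both WT lists and in no DKO list. Among genes with a WT H3K4me3 peak, the counts were 5 of 23 against 2.64%. A WDR5 peak in DKO lay at 0 of 28, against 0.653% of all genes in either DKO list. At that share, 0 is near the background for a list of this size. The lists report only what passed the peak caller's threshold, so a gene without a peak can still hold signal below it.

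Rps3 encodes a protein at the entry of the messenger RNA channel. Its WDR5 peak (chromosome 7, 99483416 to 99483642 in list 1) held 25 fragments at the summit and a fold enrichment over the local background of 6.57 in list 1, and 23 fragments and 6.80 in list 2. The peak lay inside the gene, from 67 to 293 bases after the start, and its summit lay 180 bases after it, so it began just past the promoter run shown. Its ranks of 102 of 725 peaks and 66 of 450 placed it among the higher peaks of each list.

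Rps18, whose protein sits in the head of the subunit at the face towards the large subunit, had a WDR5 peak across its start, from 102 bases before to 389 after (chromosome 17, 33955276 to 33955767). Its fold enrichment was 6.18 in list 1 and 5.98 in list 2, with 30 and 26 fragments at the summit, 79 bases after the start. The ETS matches in capitals above lie within the 250 bases before the start, and the nearer one, at 75 to 69 bases, falls under the peak. The peak also came within 12 bases of an end of Vps52, a subunit of a vesicle tethering complex, which starts from the same region, so the call cannot be assigned to Rps18 alone.

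Rps19, the gene most often mutated in Diamond-Blackfan anaemia and needed for small subunit maturation, had its WDR5 peak before the start. It ran from 392 to 103 bases before it in list 1 (chromosome 7, 24884200 to 24884489), so it covered the first part of the run shown and not the Sp1 box in capitals. Fold enrichment was 6.20 in list 1 and 5.70 in list 2, with 26 and 22 fragments.

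Rps14 encodes a protein of the platform near the messenger RNA exit, and loss of 1 copy underlies the anaemia of the 5q deletion syndrome. Its WDR5 peak overlapped the first end of the gene span (chromosome 18, 60774316 to 60774641) at 6.85 in list 1 and 6.00 in list 2, with 27 and 22 fragments. By rank it was 82 of 725 and 120 of 450.

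Rps29, which encodes a small zinc-binding protein of the head, had the lowest of the values called in both lists. Its peak lay 363 bases outside the gene span in list 1 (chromosome 12, 69159549 to 69159785), at 4.77 and 4.51, with 19 and 16 fragments and a -log10 q of 5.15 and 3.72. It overlapped the end of Rn7s1, a small cytoplasmic RNA gene that lies between it and Rps29, so the call cannot be assigned to Rps29. Rps6, whose protein is the classic substrate of S6 kinase, was called in list 1 alone, at 4.67 with 16 fragments and a -log10 q of 4.1. That peak lay 49 to 237 bases after the start.

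All 5 genes in both lists had the same summit base in both, so list 2 adds no independent support. Over the 5 genes the median fold enrichment was 6.20 in list 1 and 5.98 in list 2, beside 5.29 and 5.07 over all 241 genes called by the same rule. The nearest DKO WDR5 peak lay 378 kb from Rps19, 648 kb from Rps18 and at least 2410 kb from Rps3, Rps6, Rps14 and Rps29. Over all small subunit genes the median distance was 2700 kb, as the DKO WDR5 lists held only 226 and 166 peaks. The plot of all genes and lists shows the WDR5 calls as isolated entries among genes with and without strong H3K4me3.

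**Figure D1:**
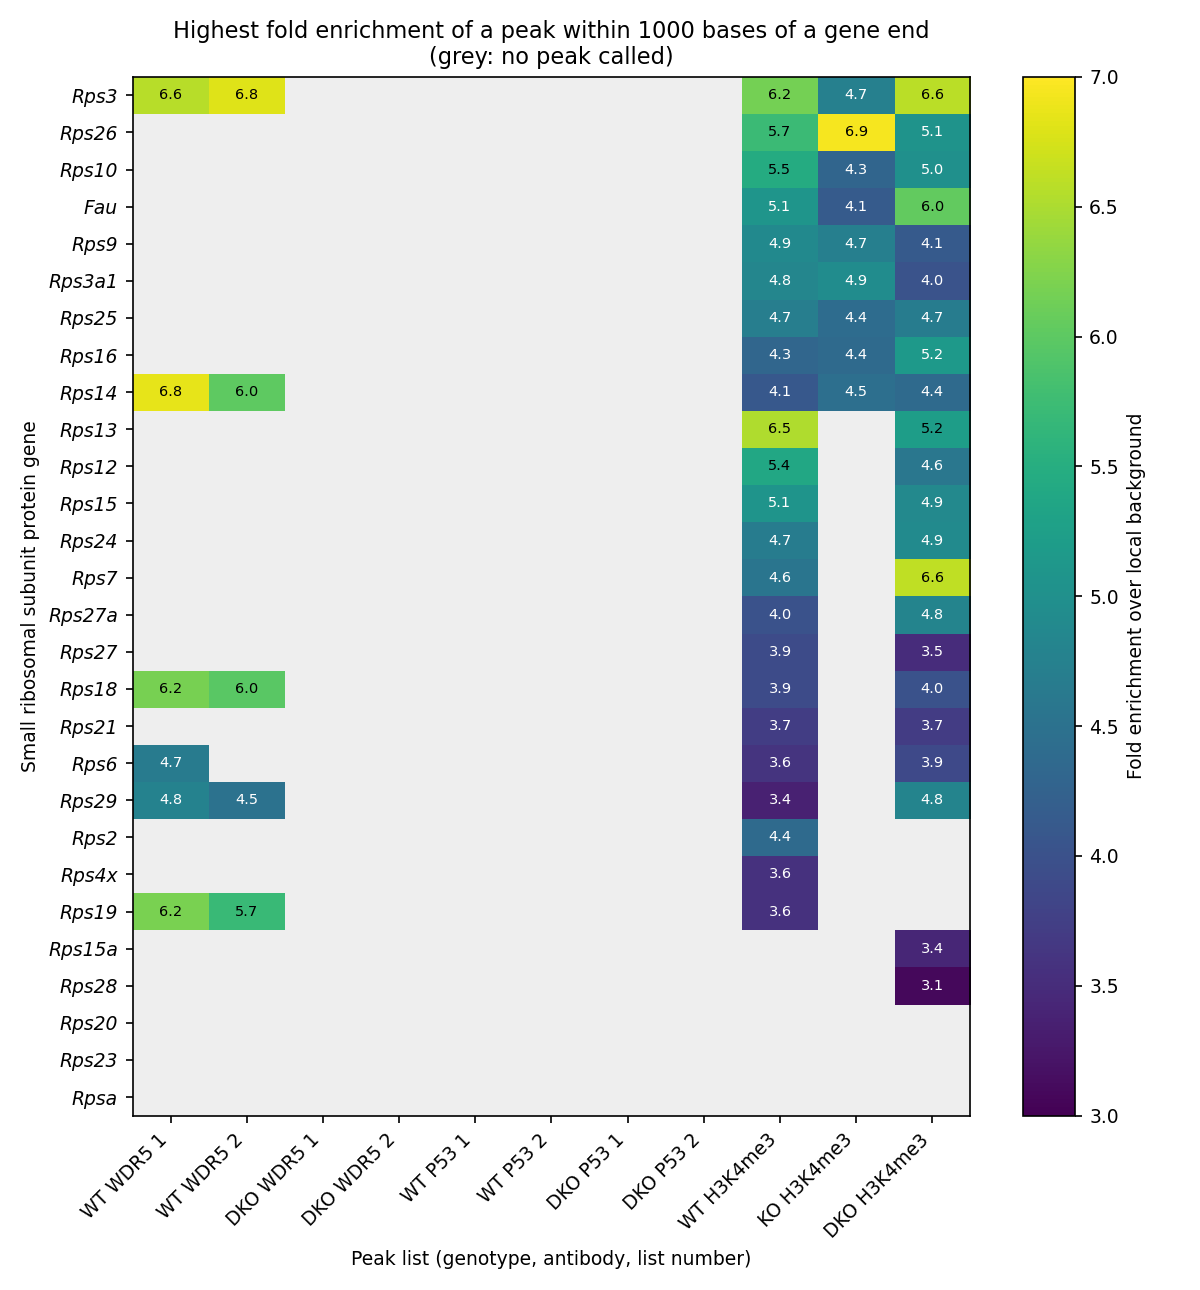
Highest fold enrichment over local background (colour and number) of a peak within 1000 bases of a gene end, for each of the 28 small subunit genes (rows) in each of the 11 peak lists (columns), with grey where no peak was called. WDR5 entries lie at 6 genes in WT list 1, at 5 in list 2 and at 0 in DKO, the 4 P53 columns hold none, and Rps20, Rps23 and Rpsa have no entry.

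P53 was called at 0 of the 28 genes in any of the 4 lists, WT or DKO, against 0.137% of all protein-coding genes, so 0 is near the background for a list of this size. The WT P53 peak nearest to a small subunit gene lay 10.2 kb from Rps21, and the next gene by distance was Rps7, at 162 kb. In DKO, the nearest P53 peak lay 360 kb from Rps10.

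WDR5 and H3K4me3 peaks overlapped in WT at Rps3, Rps14, Rps18 and Rps19, which are 4 of the 5 genes, against 51.5% of the 241 genes called for WDR5. Among the large subunit genes called for WDR5, the peaks overlapped at 10 of 13 (76.9%), so this share is not particular to the small subunit. At Rps18 all 492 bases of the WDR5 peak lay in the H3K4me3 peak, and the summits were 99 bases apart. At Rps19 they shared 266 of 290 bases with summits 142 bases apart, and at Rps3 187 of 227 bases with summits 279 bases apart. The Rps14 peaks shared 271 of 326 bases, while the summit of its broad H3K4me3 peak lay 907 bases from that of WDR5. The Rps29 peaks did not touch and were 516 bases apart. At Rps6, the list 1 peak lay wholly inside the H3K4me3 peak.

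In WT, H3K4me3 was called at 23 of 28 small subunit genes (82.1%, 95% Wilson interval 64.4 to 92.1), against 35.5% of all protein-coding genes. Rps15a, Rps20, Rps23, Rps28 and Rpsa had no peak, also when the whole gene span was searched. Of these, Rpsa encodes the laminin receptor precursor protein and Rps23 a protein of the decoding centre. Fold enrichment of the highest peak per gene ran from 3.37 to 6.52 with a median of 4.56, beside 4.72 over all 7759 marked genes.

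The highest WT values were 6.52 at Rps13, 6.17 at Rps3 and 5.72 at Rps26, a gene of the messenger RNA exit region that is also mutated in Diamond-Blackfan anaemia. The lowest were 3.37 at Rps29, 3.57 at Rps19 and 3.57 at Rps4x, the X-linked member. Of the 5 genes with a WDR5 peak near an end, Rps3 was therefore near the top and Rps29 and Rps19 at the bottom of the range, and Rps14 (4.1) and Rps18 (3.91) were also below the median.

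The highest peak of each gene had a median width of 856 bases, from 308 to 1835, beside 596 over all marked genes. The widest were 1835 bases at Rps14, 1619 at Rps13 and 1575 at Rps7, whose protein can bind MDM2. The narrowest were 308 at Rps4x, 424 at Rps19 and 431 at Rps12. A second peak lay within the window at 6 of 23 genes (26.1%, against 17.0% of all marked genes), which were Rps12, Rps19, Rps25, Rps27, Rps27a and Fau.

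Relative to the annotated start, the highest WT peak of the 20 marked genes with an entry lay wholly after the start at 12, spanned it at 5 and lay before it at 3. Over all genes the shares were 61.0%, 23.2% and 15.7%, and for these 20 genes they were 60.0%, 25% and 15.0%. The median summit lay 298.5 bases after the start, beside 296 over all genes, so position followed the general pattern. The 5 that spanned the start were Rps7, Rps13, Rps18, Rps25 and Rps26. At Fau, Rps12, Rps19 and Rps27, 1 peak lay on each side of the start with the start itself between them.

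**Figure D2:**
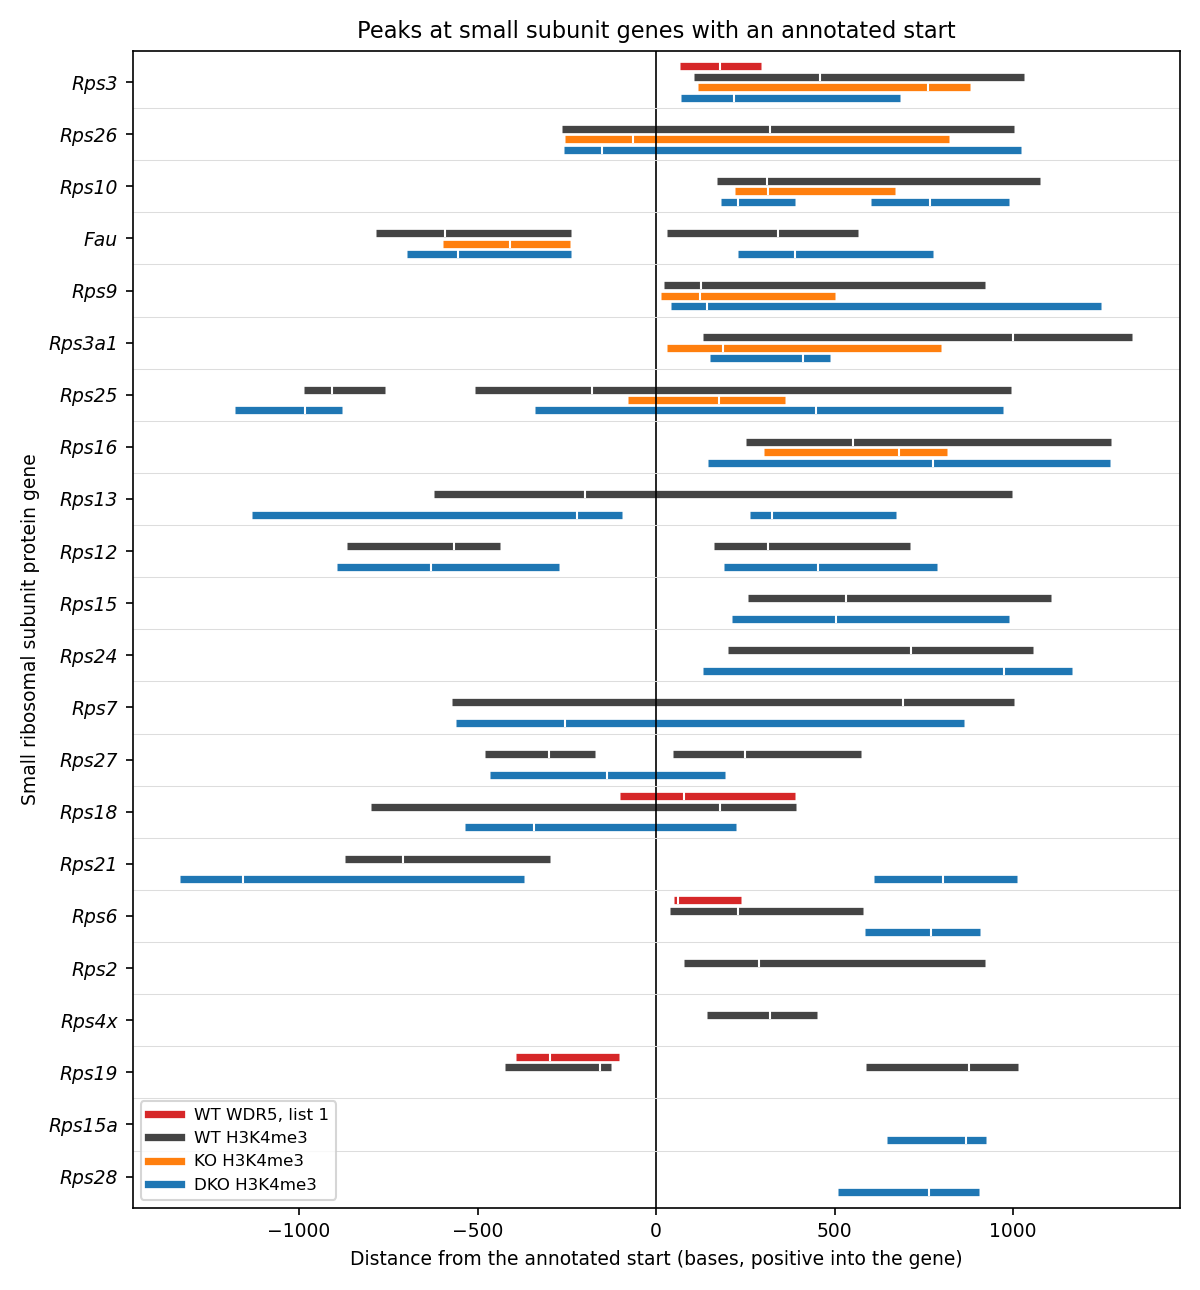
Peaks of WT WDR5 list 1 and of H3K4me3 in WT, KO and DKO (bars, summit as a white tick) by distance in bases from the most upstream annotated start, positive into the gene, for small subunit genes with an entry in the promoter table and a peak. Of the highest WT H3K4me3 peaks, 12 lie after the start, 5 span it and 3 lie before it, and KO bars are present at 8 of the genes drawn.

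Several of these peaks lay at a protein-coding neighbour as well, which the caller cannot separate. In WT this held for Rps18 with Vps52, Rps25 with Trappc4, a trafficking complex subunit gene, Rps27 with Rab13, a small GTPase gene, and with Nup210l, Rps27a with Clhc1, and Fau with Mrpl49, a mitochondrial ribosomal protein gene. In DKO alone, a peak at Rps21 also lay at Cables2, and that at Rps28 at Ndufa7 and Kank3. Non-coding genes shared further WT H3K4me3 peaks. Long non-coding RNA genes were Gm10589 at Rps13, Gm15420 at Rps10, Gm30682 at Rps15 and Snhg9 at Rps2. The peaks of Rps21 and Rps29 lay near Mir3091 and Rn7s1. At Fau the higher WT peak was the one on the Mrpl49 side, from 784 to 239 bases before the start, with 5.08, and the peak inside Fau reached 4.04. Of the 28 genes, 8 hold a snoRNA gene within their span, and none of the counts above separates host from guest.

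In KO, H3K4me3 was called at 9 of the 23 genes marked in WT (39.1%, 95% Wilson interval 22.2 to 59.2), against 8.98% of all marked genes. The 9 were Rps3, Rps3a1, Rps9, Rps10, Rps14, Rps16, Rps25, Rps26 and Fau. The 5 genes with no WT peak had none in KO, where 0.0283% of all such genes had one. All 9 were called in DKO too, and genes called in all 3 libraries made up 8.47% of all marked genes. The KO library was the shallowest and its list the shortest of the 3, and the part of depth in the missing calls was not tested.

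Rps26 stood highest in KO, at 6.94 beside 5.72 in WT and 5.06 in DKO, and its KO peak ranked 73 of 918. Its peak spanned the start in all 3 libraries, with a width of 1268, 1074 and 1279 bases. Rps3a1 had 4.83, 4.95 and 4.03, and Rps3 had 6.17, 4.74 and 6.59. The other KO values lay in a narrow range, from 4.15 at Fau to 4.73 at Rps9.

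Rps10, a protein ubiquitylated when ribosomes collide, had 5.46 in WT, 4.31 in KO and 5.01 in DKO. Rps25, needed for initiation at some viral internal entry sites, had 4.71, 4.41 and 4.44 at the peak that spans its start, and in DKO a peak from 1180 to 880 bases before the start was higher, at 4.69. Rps9 had 4.90, 4.73 and 4.14, and Fau, made as a fusion with a ubiquitin-like protein, had 5.08, 4.15 and 6.03. At Fau the KO peak was the one on the Mrpl49 side, so the KO call there may be read for either gene.

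Rps16 had 4.32 in WT, 4.38 in KO and 5.15 in DKO, and Rps14 had 4.1, 4.46 and 4.38. Fold enrichment was above WT in KO at 4 of the 9 genes (Rps3a1, Rps14, Rps16 and Rps26), against 20.5% of the 697 genes marked in both. The same held for 6 of 14 large subunit genes (42.9%), 2 of 10 small subunit assembly factor genes and 0 of 2 mitochondrial small subunit genes. Each value is scaled to the background of its own library, so these are side by side values and not changes.

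The KO peaks were narrower than the WT peaks at all 9 genes (median 488 bases against 1023), as at 97.6% of all genes marked in both. At Rps14 the width was 1835 bases in WT, 374 in KO and 1656 in DKO. The WDR5 peak of Rps14 overlapped the H3K4me3 peak in WT and in DKO, and lay 52 bases from the KO peak. At Rps16 the widths were 1023, 514 and 1127 bases.

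Genes called in KO had higher and wider WT peaks, among small subunit genes as among all genes. The median WT fold enrichment was 4.90 at the 9 genes called in KO and 3.96 at the 14 others, beside 5.59 and 4.63 over all marked genes. The median WT width was 1023 and 785.5 bases, beside 922 and 570. Of genes with a WT peak at least 1000 bases wide, a division chosen after the data were seen, 5 of 8 small subunit genes and 25% of 1181 genes in all were called in KO. Of those with a narrower peak, 4 of 15 and 6.11% of 6578 were. Single genes went against these medians in both directions. Rps13 (6.52), Rps12 (5.40) and Rps15 (5.07) had high WT values and no KO call, and Rps7 and Rps18 had wide WT peaks (1575 and 1192 bases) and no KO call. Rps14 (4.1) and Rps16 (4.32) lay below the WT median and were called in KO.

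Of the 5 genes with a WDR5 peak near an end, Rps3 and Rps14 were called for H3K4me3 in KO (40.0%). Without Rps29 this is 2 of 4, with Rps18 kept although its peak is shared with Vps52. Of the 18 other marked genes 7 were called (38.9%). Over all marked genes, the share in KO was 13.2% of the 205 with WDR5 and 8.87% of the 7554 without.

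In DKO, H3K4me3 was called at 20 of the 23 genes marked in WT (87.0%, 95% Wilson interval 67.9 to 95.5), against 59.7% of all marked genes. It was also called at Rps15a and Rps28, 2 of the 5 genes with no WT peak, against 2.56% of such genes. Both were low, at 3.43 and 3.09, the 2 lowest values among the 22 genes called in DKO. The peak at Rps28 lay from 508 to 903 bases after the start.

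The genes with a WT peak and none in DKO were Rps2, Rps4x and Rps19. Rps4x and Rps19 had 2 of the 3 lowest WT values, with 17 and 26 fragments at the summit. Rps19 was thus the 1 gene with WDR5 in both WT lists and no H3K4me3 peak in DKO, where the nearest peak lay 4113 bases from its WT WDR5 peak. Rps2 depends on the gene model: its annotated start lies inside the span, and 2 DKO peaks at that start, with 2.89 and 2.77 against 4.39 in WT, fell outside the window around the ends.

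At the 20 genes marked in WT and DKO, fold enrichment was higher in DKO at 10 (50%) and lower at 10, whereas over all 4636 such genes it was higher in DKO at 16.5%. The 10 were Rps3, Rps6, Rps7, Rps14, Rps16, Rps18, Rps24, Rps27a, Rps29 and Fau. At Fau this holds for the peak on the Mrpl49 side, while the peak inside Fau had 4.04 in WT and 3.41 in DKO. The highest WT and DKO peaks shared no base at Rps6, Rps21 and Rps25, and of the 17 other genes 9 were higher in DKO (52.9%), against 15.9% of 4039 genes in all. The median over the 20 genes was 4.69 in WT and 4.81 in DKO, beside 5.06 and 4.08 over all genes marked in both. Large subunit genes had 16 of 37 higher in DKO (43.2%), small subunit assembly factor genes 5 of 30 (16.7%) and mitochondrial small subunit genes 2 of 19 (10.5%). The median WT values of these groups were 4.37, 5.40 and 5.07, so they also differed in WT level, and its part in the counts was not tested. The libraries are not scaled to each other and there is 1 of each, so the order of the gene groups within this pair of libraries is described and not tested.

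Rps18 had 3.91 in WT and 4.0 in DKO, and Rps6 had 3.6 and 3.88, both without a KO peak. Rps24 had 4.68 and 4.92, and Rps27 had 3.91 and 3.5. Rps21 had 3.73 in WT, from a peak 872 to 296 bases before the start, and 3.63 in DKO from a peak there. Its highest DKO peak, at 3.71, was another one, 610 to 1011 bases after the start and near Cables2. At Rps6 the peaks lay side by side: the DKO peak began 347 bases beyond the WT WDR5 peak.

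Rps7, singled out after the values were seen, had the furthest apart values, with 4.56 in WT and 6.62 in DKO, at 28 and 41 fragments. Its peak spanned the start in both, and the summit lay 691 bases after the start in WT and 255 before it in DKO. Rps29 had 3.37 and 4.80, and Rps27a, made as a fusion with ubiquitin, 4.0 and 4.81. In the other direction, Rps13 had 6.52 in WT and 5.23 in DKO, where its 1 wide peak was called as 2 with the start between them. Rps12 had 5.40 and 4.58, and Rps15 had 5.07 and 4.89. Peaks were narrower in DKO at 14 of the 20 genes (70.0%), as at 73.1% of all genes.

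**Figure D3:**
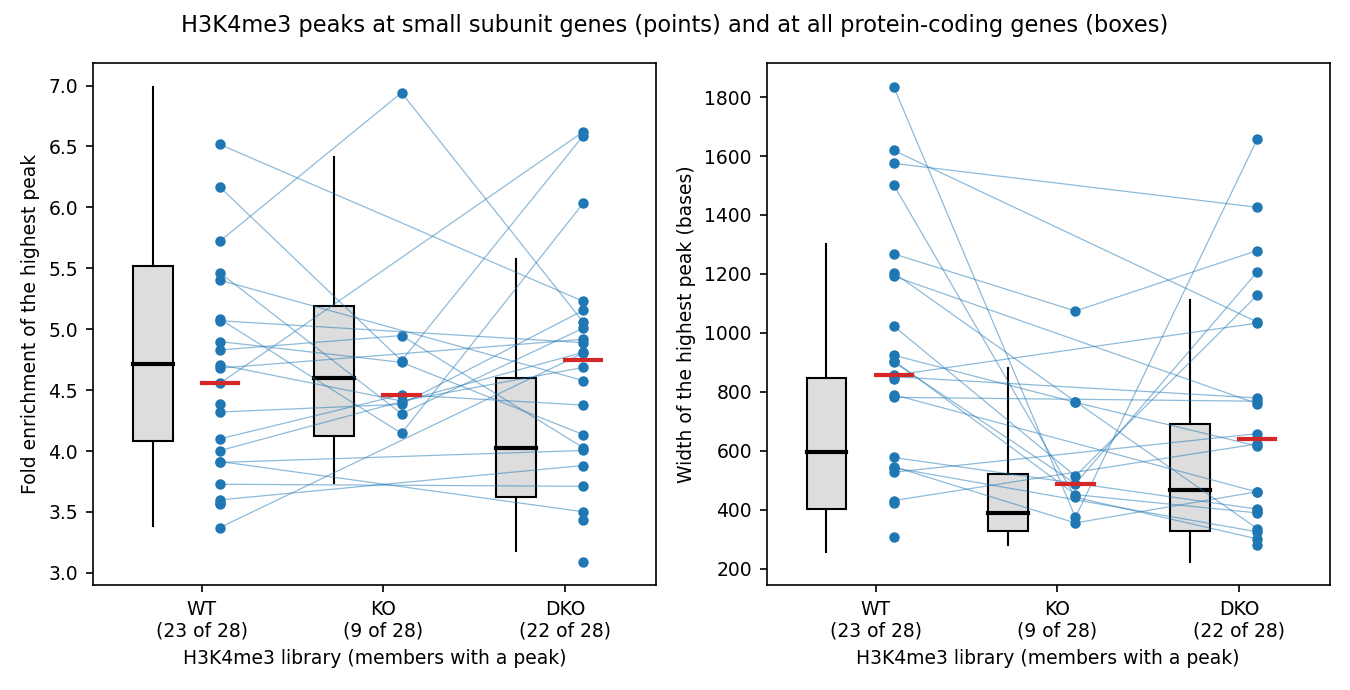
Fold enrichment over local background (left) and width in bases (right) of the highest H3K4me3 peak at each small subunit gene in the WT, KO and DKO library (points, joined by gene, red bar at the median), beside all protein-coding genes with a peak (box from the 25th to the 75th percentile with the median, lines from the 5th to the 95th). The members' median is 4.56 in WT and 4.74 in DKO, while that of all genes is 4.72 and 4.03.

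Genes of related function were counted in the same way. WDR5 was called in both WT lists and in no DKO list at 13 of 47 large subunit genes (27.7%, 16.9 to 41.8), beside 5 of 28 (17.9%, 7.88 to 35.6) for the small subunit. The highest were Rpl7 (8.39 and 8.27), Rpl27 (7.04 and 6.57), Rpl23 (6.56 and 6.43), Rpl37 (6.11 and 5.92) and Rpl11 (6.25 and 5.09). The difference between both subunits was not tested, and these intervals cover counting error over genes only. Of 44 small subunit assembly factor genes, Mphosph10 was called, at 4.27 and 4.67, and of 31 mitochondrial small subunit genes 0 were. Rack1, whose protein is a signalling scaffold bound to the head of the small subunit, was called at 6.12 and 5.80, as the 1 called gene of 4 near relatives that also included Rps27l, Rps6ka1 and Rps6kb1.

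H3K4me3 in WT was called at 87.2% of large subunit genes, 84.1% of assembly factor genes and 90.3% of mitochondrial small subunit genes, all close to the 82.1% of the small subunit. In KO, 14 of 41 marked large subunit genes (34.1%), 10 of 37 assembly factor genes (27.0%) and 2 of 28 mitochondrial small subunit genes (7.14%) were called, beside 9 of 23. In DKO the counts were 37 of 41, 30 of 37 and 19 of 28, beside 20 of 23. None of these differences between gene groups was tested. For KO the Wilson interval was 22.16 to 59.21 for the small subunit and 1.98 to 22.65 for mitochondrial small subunit genes. These intervals cover counting error over genes only, so whether they overlap is no test of a difference.

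**Figure D4:**
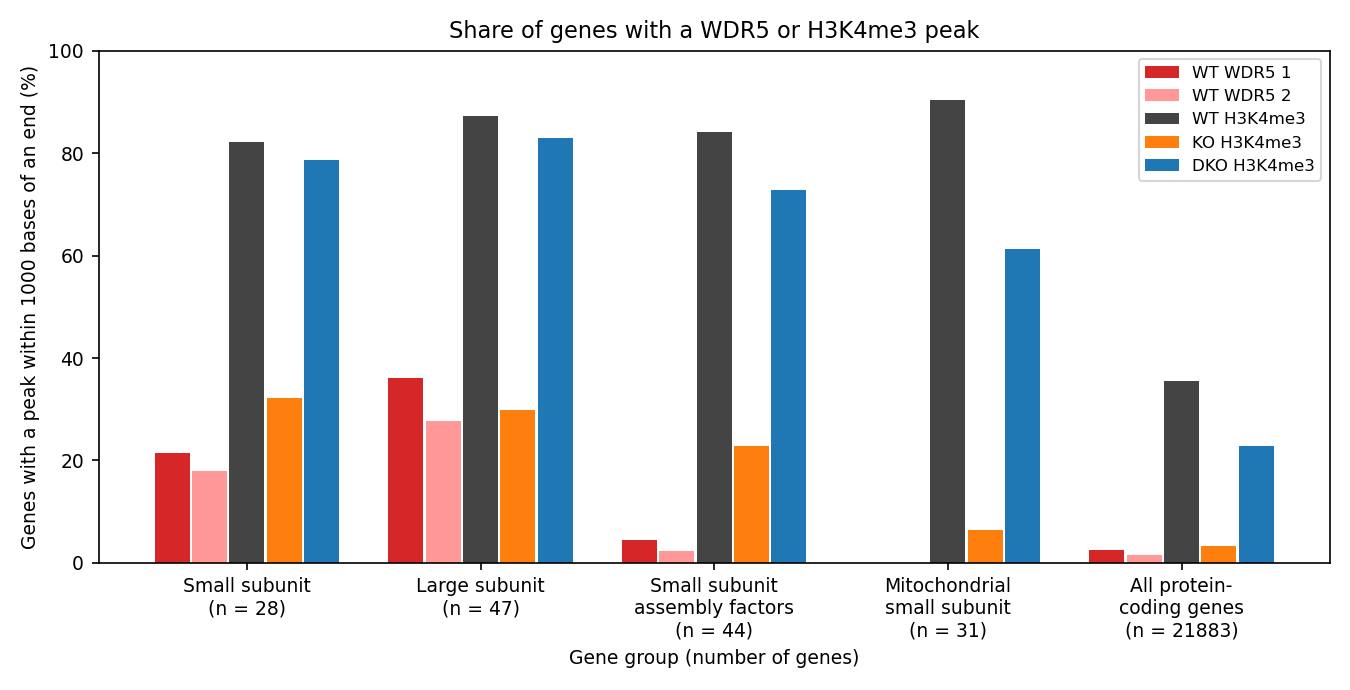
Percent of genes with a WDR5 peak (WT lists 1 and 2) or an H3K4me3 peak (WT, KO, DKO) within 1000 bases of an end, for small subunit genes, 3 related groups and all protein-coding genes, with the number of genes in brackets. For the small subunit the bars stand at 21.4%, 17.9%, 82.1%, 32.1% and 78.6%, and those of mitochondrial small subunit genes at 0 for WDR5 and 6.45% for KO H3K4me3.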

How the data were processed

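Each of the 11 samples had 1 peak list. Per the file headers, the authors ran MACS (2.1.2 or 2.1.0.20150731) in paired-end mode with no control. They took q up to 0.01, a local background over 10000 bases, and no more than 2 duplicates of a fragment. Per the submitters' processing notes the build was mm10, and Bowtie2, SAMtools 1.5, bedtools and HOMER 4.10 were also used, with no role given. The alignments of all lists numbered 2 were merged from runs, per the file headers. In each deposited list the pileup is coverage in fragments at the summit, a signal not scaled to depth. The deposited fold enrichment is a ratio, pileup over that library's own local background, and the deposited -log10 p and -log10 q are values of 1 peak. They were used to describe and rank peaks within a list.

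Autosomal, X and Y peaks were matched to gene ends of RefSeq GRCm38.p6 with Python 3.11.15 and pandas 2.3.3, within 1000 bases. Placed peaks at known distances were used to check the matching. Called for WDR5 means a peak in both WT lists and in neither DKO list, unless a list is named. For P53 the count of 0 and its share of 0.137% refer to a peak in any of the 4 lists. Under other settings, P53 was counted by the rule given for WDR5. The highest peak stands for a gene. Wilson 95% intervals cover counting error only. The genes and lists were chosen with earlier results of these data known. Values were given for every gene with a WDR5 peak or a KO H3K4me3 peak, and otherwise for the 3 highest and 3 lowest by WT H3K4me3 enrichment or width, while further genes named for H3K4me3 were chosen after their values were seen. Of 45 assembly factor entries 44 matched a gene, and starts came from 24 entries of the promoter table. Rps14, Rps20, Rps27a and Rps29 were not among them.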

Additional observations from a re-analysis of the deposited data

How the results depend on the processing

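The count of small subunit genes with a WDR5 peak in WT and none in DKO was 5, and 4 to 6 under other settings (other windows, the whole gene span, summits, a -log10 q of at least 3, the top 50% by fold enrichment, lists of equal length, either WT list, and leaving out a list). It was 5 or 6 without 1 WT list and 5 without 1 DKO list, and 3 by distance to the annotated start, an alternative chosen after seeing the data that has no entry for Rps14 and Rps29. The P53 count was 0 under all 13 alternatives, none of which could change it, as the nearest WT P53 peak lay 10.2 kb away, at Rps21. With the top 50% of each list, H3K4me3 was called at 12, 4 and 18 genes (WT, KO, DKO), against 23, 9 and 22. When each list was reduced to its 918 highest peaks, the counts were 1 in WT (Rps13), 9 in KO and 9 in DKO. The order of the 3 libraries therefore holds for the lists as deposited and not for their highest peaks. Shares of all protein-coding genes under these cuts are not given, so the counts have no background beside them. The KO list as deposited marked 3.20% of all protein-coding genes. All other alternatives kept the WT, KO and DKO counts within 1.5 times. The counts without Rps29, and over genes whose highest peaks overlap, were also chosen after seeing the data. No paired analysis was possible because these results come from no test. A list names only peaks above its threshold, so an absence given here is a missing call and not a lack of signal. The KO library was the shallowest, and the part of depth in the missing calls was not tested.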

Other observations

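Processed pseudogenes of these genes are many, and their exons can take reads from the parent gene. Of 108 annotated pseudogenes named after a listed gene, 0 overlapped a WDR5 peak in any list. Rps7-ps1, on chromosome 8, overlapped an H3K4me3 peak in all 3 libraries, enriched 3.97-fold in WT, 7.0-fold in KO and 6.83-fold in DKO, and a peak of WT P53 list 1 at 4.28. The Rps7 gene itself had no peak in KO. Fau-ps2 overlapped an H3K4me3 peak of 142 fragments in WT and 115 in KO, but at a fold enrichment of only 1.64 and 1.85, a place of high local background.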
